A study of Emberiza melanocephala with 12 samples.

Results

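NONO, SFPQ and HNRNPU are nuclear RNA-binding proteins that have each been tied to the circadian clock. Their transcripts were followed in the liver of the blackheaded bunting, a night-migratory songbird, across 2 seasonal states and 6 times of day. The members were the 3 rows of the FPKM table whose gene IDs carry these symbols in the study's lists of state-dependent and cyclic genes, of 18284 rows in all. They were NONO (ENSTGUG00000007048), SFPQ (ENSTGUG00000001722) and HNRNPU (ENSTGUG00000008309), and all 3 were among the 9566 genes compared, those with more than 0.1 FPKM (the number of fragments scaled to transcript length and to the mapped reads of the library) in at least 10 libraries. The study singled out all 3 genes from these same libraries, so their differences between states are not independent evidence.

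Adult male birds taken from a wild wintering flock gave 12 liver libraries, 1 bird each. In the photostimulated migratory (M) state were 6 birds, moved from short to long days until each had shown nocturnal migratory restlessness (labelled LDM). In the photorefractory non-migratory (nM) state were 6 birds, held on long days until they no longer responded to them (labelled LDR). Livers were taken from 1 bird of each state at ZT1, ZT5, ZT9, ZT13, ZT17 and ZT21, counted in hours from lights on, with ZT17 and ZT21 in the dark. All birds were on long days when sampled. The states therefore differ in photoperiodic history as well as in migratory condition, and a single bird stands for each state and time.

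NONO and SFPQ belong to a small family of proteins that pair with each other through a shared domain, bind RNA and DNA in the nucleus and, in mammals, build the paraspeckle, a nuclear body formed on a long noncoding RNA. In mammals NONO and SFPQ have both been found with the PERIOD proteins, the repressors of the clock, where SFPQ brings a histone deacetylase complex to the Per1 promoter. Mouse liver NONO is also known to act on genes that respond to feeding. HNRNPU, or scaffold attachment factor A, is an abundant protein of the hnRNP group that holds RNA and chromatin together in the nucleus, and in mammals it has been linked to transcription of ARNTL (BMAL1), an activator of the clock.

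A few libraries stood apart and touch the values below. The M library of ZT17 had an FPKM total 2.91 times the mean of the libraries, against 0.63 to 1.16 times in the other 11, and 645 of the genes compared were listed at 0 in it against 9 to 257. The nM library of ZT5 had a median rank correlation of 0.897 with the other nM libraries and 0.928 with the M libraries. The M library of ZT1 had 0.936 with its own state and 0.933 with the other. The reads of each library are listed in the supplement of the study but not in the processed files, were not used here, and no counting interval is given. In that listing the nM library of ZT5 had the most reads and the nM library of ZT13 the fewest. The M library of ZT9 had the lowest share of high-quality bases. The part of depth and base quality in the results was not tested. Of the hepatocyte markers that carry a symbol, FGB, a chain of fibrinogen, was at 1850.0 FPKM or more in every library, while ALB was listed at 0 in 4 libraries. TTR-1 was the one hepatocyte marker called between states, at 23.5 to 145.3 FPKM in M birds and 10148 to 39552 FPKM in nM birds (log2 difference -7.97, adjusted p = 1.04e-06 from limma). The summed level of 3 leukocyte markers was 17.7 to 136.3 FPKM in the M state and 56.3 to 136.5 FPKM in the nM state. As deposited, NONO, SFPQ and HNRNPU were all at their highest in the M library of ZT17. With FPKM rescaled to equal totals, NONO and HNRNPU were there at 20.2 and 43.4 FPKM, the lowest of the 12 libraries. The leukocyte sum there was 17.7 FPKM, the sum of 4 stellate and fibroblast markers 71.4 FPKM and the endothelial marker KDR 0.31 FPKM. Each was the lowest of the 12 libraries as deposited. Other markers went the other way. COL1A2, 1 of those 4 stellate and fibroblast markers, was at 35.9 FPKM and the bile duct marker KRT7 at 45.8 FPKM, each the highest of the 12. The hepatocyte sum, 48380 FPKM, was the highest of the M state, but ALB made up 34128.5 FPKM of it. ALB was listed at 0 in the M libraries of ZT1, ZT5 and ZT9, so these sums are not alike. The other hepatocyte markers were mixed at ZT17. Within the M state FGB was lowest there (2019.6 FPKM), AHSG (8033.6 FPKM) and TTR-1 (145.3 FPKM) were highest, and FGG (4053.2 FPKM) lay in between. The part of these markers in the results was not tested. In liver tissue, fewer cells of a type and less RNA per cell cannot be told apart.

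HNRNPU had the highest level of the 3 genes in each of the 12 libraries. On the FPKM scale, which is per length of transcript, it ranked at or above the 80.2 percentile of the genes compared in every library. NONO was second in 10 libraries. SFPQ passed NONO only in the M library of ZT17 and the nM library of ZT5, at 67.3 against 58.7 FPKM and 30.7 against 29.8 FPKM. The genes differed in how steady they were. Over the 12 libraries the highest value was 2.5 times the lowest for NONO, 2.2 times for HNRNPU and 23.7 times for SFPQ. The spread within states, as a pooled SD of log2(FPKM + 1), was 0.20 for NONO and 0.22 for HNRNPU, at the 1.64 and 2.39 percentiles of the genes compared. It was 1.19 for SFPQ, at the 94.4 percentile, where the median gene had 0.59. These spreads are those of the deposited scale. With equal totals the M libraries ran from 20.2 to 90.1 FPKM for NONO and from 43.4 to 139.7 FPKM for HNRNPU. For SFPQ they ran from 9.86 to 43.4 FPKM.

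NONO was higher in the M state, with no overlap between the states on the deposited scale. Its FPKM was 39.8 at the lowest, 56.5 at the median and 58.7 at the highest in the M libraries, and 23.5, 29.1 and 34.3 in the nM libraries. All 6 M libraries lay above all 6 nM libraries, and such separation with the M state higher was seen in 0.784% of the 9566 genes compared. The mean was 52.8 ± 7.84 FPKM in M birds and 29.2 ± 3.56 FPKM in nM birds (SD, n = 6 each), a ratio of 1.81. On the log2(FPKM + 1) scale the difference was 0.83 (standard error 0.19, 95% interval 0.42 to 1.24, adjusted p = 0.0375 from limma). In all, 2.84% of the genes compared were called higher in the M state, at an adjusted p below 0.1 and a log2 difference above 0.1, and 6.48% were called lower. An exact two-sided permutation of the state labels gave p = 0.00216, the smallest that 6 against 6 libraries allow. The call held with any 1 library left out, at differences of 0.77 to 0.90 and adjusted p of 0.0197 to 0.0893. It was lost when FPKM was rescaled to equal totals (log2 difference 0.68, adjusted p = 0.368), a scaling that divides the M library of ZT17 by 2.91 and takes NONO there from 58.7 to 20.2 FPKM, below every nM library. The M library of ZT5, at 40.0 FPKM, then also lay below the nM library of ZT21, at 54.1 FPKM. Median-of-ratios scaling, which divides the M library of ZT17 by 0.90, put NONO there at 65.0 FPKM. The call held under it (log2 difference 0.94, adjusted p = 0.0336 from limma) and with quantile normalization (0.84, adjusted p = 0.0314 from limma).

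SFPQ had the largest difference between states of the 3 and the widest scatter. Its FPKM was 6.33 at the lowest, 23.8 at the median and 67.3 at the highest in the M libraries, and 2.83, 3.71 and 30.7 in the nM libraries. In 5 of the 6 nM libraries SFPQ was at 4.83 FPKM or less, below every M library, and the remaining one, ZT5, lay inside the M range. The mean was 29.2 ± 23.1 FPKM in M birds and 8.10 ± 11.1 FPKM in nM birds (SD, n = 6 each). The ratio of the means was 3.60 and that of the medians was 6.41. The difference in log2(FPKM + 1) was 1.88 (standard error 0.61, 95% interval 0.58 to 3.18), which passed the threshold narrowly (adjusted p = 0.0943 from limma), and an exact two-sided permutation of the labels gave p = 0.026. The position of SFPQ among all genes was the 99.1 percentile of log2 differences, against 89.6 for NONO and 79.6 for HNRNPU.

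The call for SFPQ was borderline and changed with single libraries. It was kept without the M library of ZT1 (2.21, adjusted p = 0.038) and without the nM library of ZT5 (2.35, adjusted p = 0.0243), and was lost when any of the other 10 libraries was left out, with differences of 1.57 to 2.08 and adjusted p of 0.105 to 0.190. The lowest of these differences was without the M library of ZT17. Without the M ZT1 and nM ZT5 libraries together, the difference was 2.68 (adjusted p = 0.00553), and 10.2% of the genes were then called higher in the M state. These are the 2 libraries that resembled the other state most over all genes, and they were chosen after the data were seen. Their part in the SFPQ values was not tested. With equal totals the SFPQ difference was 1.74 (adjusted p = 0.126).

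HNRNPU was the most abundant and showed the smallest difference. Its FPKM was 72.8 at the lowest, 88.3 at the median and 126.3 at the highest in the M libraries, and 57.3, 60.5 and 73.6 in the nM libraries. The ranges met at 1 pair of libraries, M at ZT1 and nM at ZT17. The mean was 91.0 ± 19.0 FPKM in M birds and 63.6 ± 6.87 FPKM in nM birds (SD, n = 6 each), a ratio of 1.43. The difference in log2(FPKM + 1) was 0.49 (standard error 0.20, 95% interval 0.07 to 0.91) and did not pass the threshold over all genes (adjusted p = 0.147 from limma). By itself the exact two-sided permutation of the labels gave p = 0.00433. Ordinary regression, in which the spread of each gene is taken from that gene alone, gave an adjusted p of 0.0778 for the same difference, and the exact Wilcoxon rank sum test gave 0.0593 after adjustment, both past the threshold of 0.1. With limma it also passed without the M library of ZT1 (adjusted p = 0.0948). With equal totals the HNRNPU difference was 0.34 (adjusted p = 0.581 from limma). The call thus changed with the test and with 1 library. The study's list of genes higher in the M state holds NONO and HNRNPU. SFPQ is only in its list of cyclic genes, although its discussion describes SFPQ as upregulated in the M state. The limma calls here are therefore the reverse of that list for SFPQ and HNRNPU. Ordinary regression, which called HNRNPU, did not call SFPQ (adjusted p = 0.159).

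**Figure D1:**
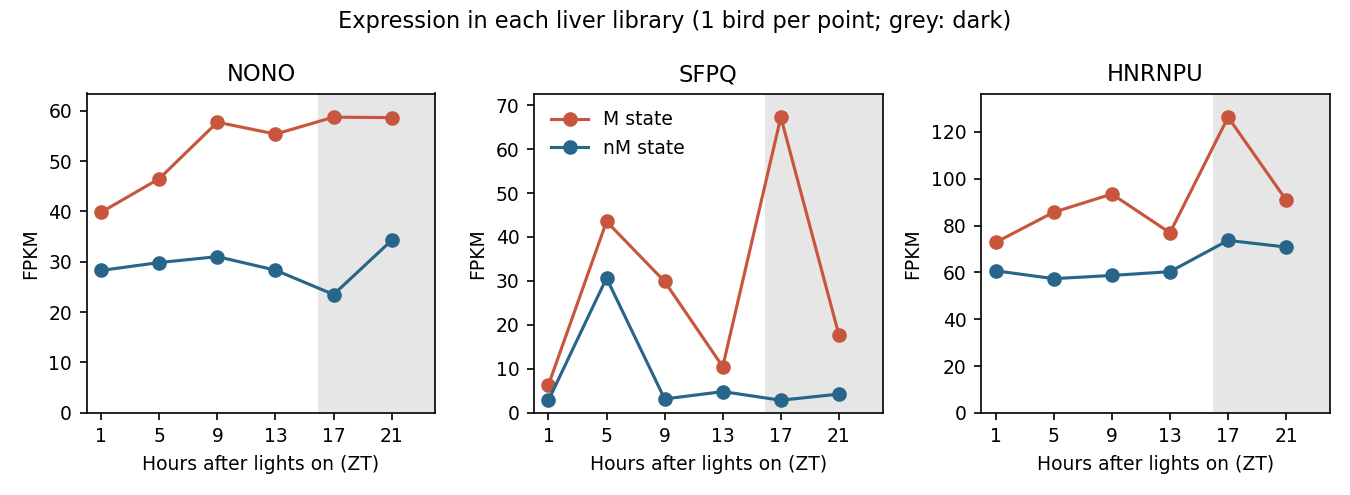
FPKM of NONO, SFPQ and HNRNPU (vertical axes, each from 0) against hours after lights on, with 1 bird per point, M state in red and nM state in blue, and the dark hours in grey. NONO separates the states at every time, HNRNPU lies higher in the M state at every time with ranges that meet, and SFPQ swings from 6.33 to 67.3 FPKM in the M state and has a single high nM library at ZT5.

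**Figure D2:**
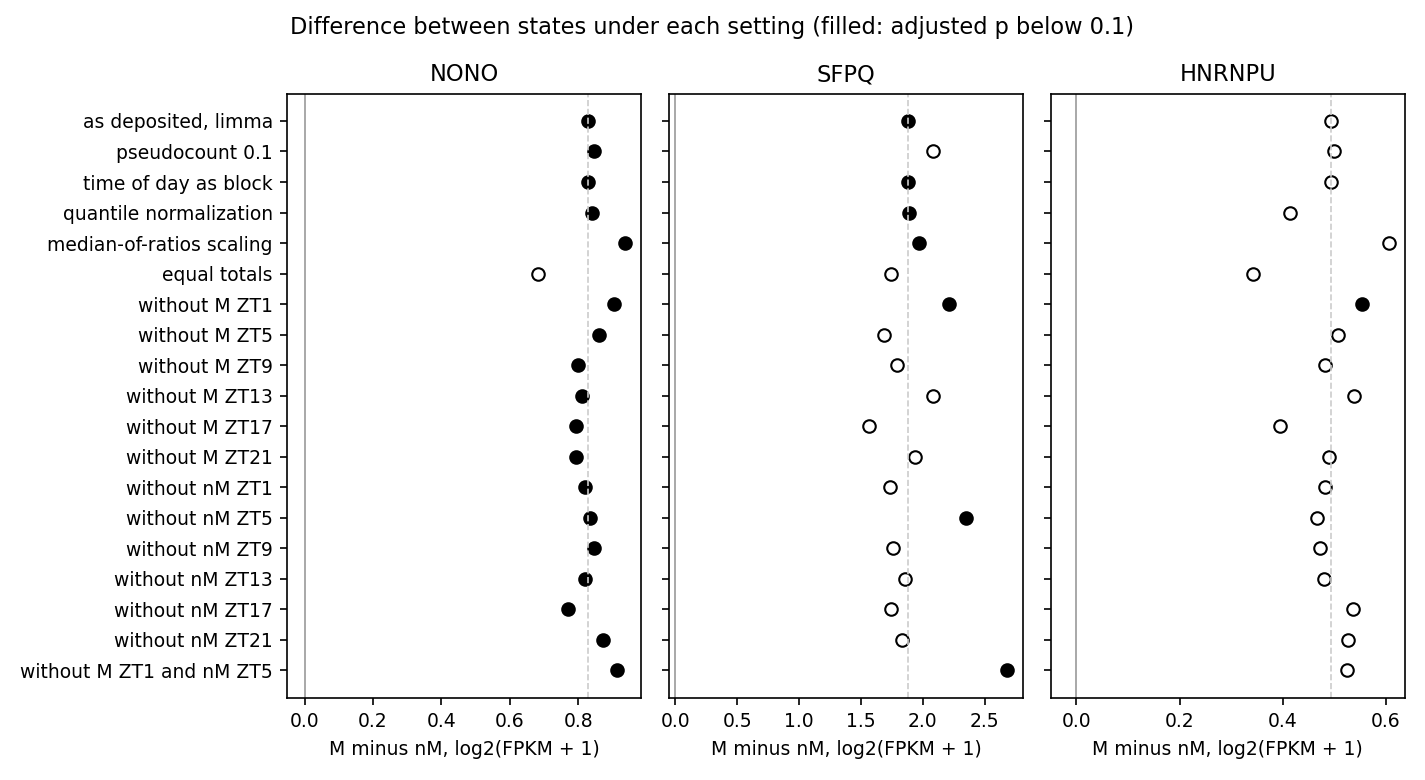
Difference between states in log2(FPKM + 1), M minus nM (horizontal axis), for each gene under the processing alternatives and with single libraries left out (vertical axis). Filled points have an adjusted p below 0.1 and open points do not. The settings plotted do not include ordinary regression or the Wilcoxon test. Among them NONO is open under equal totals alone. SFPQ is open with a pseudocount of 0.1, with equal totals and without any one of 10 libraries. HNRNPU is filled without the M library of ZT1 alone.

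On the deposited scale all 3 genes were higher in the M library at each of the 6 times of day, which held for 6.91% of the genes compared. For NONO the M value was 1.41 times the nM value at ZT1 and 1.56 times at ZT5. The ratio was 1.86 at ZT9, 1.95 at ZT13, 2.50 at ZT17 and 1.71 at ZT21. For HNRNPU it lay between 1.20 at ZT1 and 1.71 at ZT17. For SFPQ the ratio was 2.23 at ZT1, 1.42 at ZT5 and 9.48 at ZT9. It was 2.17 at ZT13, 23.5 at ZT17 and 4.15 at ZT21. With 1 bird a state at each time, these ratios have no replicate check, and the largest of each gene fell on the M library of ZT17, the one that stood apart. With equal totals the order at ZT17 turned for NONO, at 20.2 FPKM in the M and 25.1 FPKM in the nM library. It also turned for HNRNPU, at 43.4 and 78.7 FPKM. SFPQ stayed higher in the M library, at 23.1 against 3.07 FPKM. With median-of-ratios scaling the order at ZT17 stayed as deposited. NONO was then at 65.0 FPKM in the M and 20.5 FPKM in the nM library, and HNRNPU at 139.8 and 64.1 FPKM.

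Over the day, NONO in the M state rose from 39.8 FPKM at ZT1 and 46.5 FPKM at ZT5 to 57.7 FPKM at ZT9, and lay at 55.3, 58.7 and 58.6 FPKM at ZT13, ZT17 and ZT21. NONO in the nM state was 28.3 FPKM at ZT1, 29.8 at ZT5, 31.0 at ZT9, 28.3 at ZT13, 23.5 at ZT17 and 34.3 at ZT21. The lowest nM bird and the highest M bird were thus sampled at the same hour, ZT17. SFPQ in the M state went through 6.33, 43.5, 29.9, 10.5, 67.3 and 17.7 FPKM from ZT1 to ZT21, with neighbouring times differing by up to 6.87 times. SFPQ in the nM state was 2.83 FPKM at ZT1, 30.7 at ZT5, 3.15 at ZT9, 4.83 at ZT13, 2.87 at ZT17 and 4.27 at ZT21, so that a single time carried nearly all of its range. HNRNPU in the M state was 72.8, 85.7, 93.4, 76.9, 126.3 and 90.9 FPKM in the same order of times. HNRNPU in the nM state stayed between 57.3 and 60.7 FPKM at the first 4 times and was 73.6 and 70.8 FPKM at the dark times, ZT17 and ZT21.

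None of the 3 genes showed a 24-h rhythm that passed a test. A cosine shared by both states had fitted amplitudes in log2(FPKM + 1) of 0.07 for NONO, 0.41 for SFPQ and 0.18 for HNRNPU, with adjusted p of 0.969, 0.911 and 0.838 from limma. In the same fit 5 genes, 0.0523% of those compared, passed at 0.1. The rhythm differed between states in 0 genes, or 0%, by limma, while 2.78% had an unadjusted p below 0.05. For this difference NONO, SFPQ and HNRNPU had unadjusted p of 0.559, 0.515 and 0.927. Within each state, the order of the 6 values was set against cosines peaking at each hour by an exact permutation test of Kendall's score over the 720 orderings, whose smallest p is 0.0167. In the M state the exact p was 0.40 for NONO, 0.967 for SFPQ and 0.60 for HNRNPU, where 1.44% of genes fell under 0.05. Within the nM birds it was 0.833 for NONO and SFPQ and 0.0833 for HNRNPU, with a best-matching peak at ZT18, where 2.80% of genes fell under 0.05. After adjustment 0 genes passed at 0.05 in either state, but with so few orderings 3189 genes would have had to reach the smallest p for any to pass, so the adjusted values say little about rhythms. These 3 genes came from the study's list of cyclic genes, 1 as cyclic in the M state and the other two in the nM state.

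Since NONO and SFPQ act as a pair, the balance between the genes was compared within each library, where any scaling factor cancels but for the pseudocount. The FPKM of NONO was 0.87 to 6.29 times that of SFPQ in the M state. In the nM state it was 5.86 to 9.97 times that of SFPQ in 5 libraries and 0.97 times in the library of ZT5. The mean log2 difference, NONO minus SFPQ, was 1.21 ± 1.12 in M birds and 2.26 ± 1.15 in nM birds (SD, n = 6 each), so it was lower by 1.05 in the M state, which did not pass (exact two-sided permutation p = 0.121, also 0.121 adjusted over 3 pairs). NONO minus HNRNPU was -0.77 ± 0.22 in M birds and -1.10 ± 0.26 in nM birds (SD, n = 6 each), a difference of 0.33 with an exact permutation p of 0.026 and 0.0779 after adjustment. SFPQ minus HNRNPU was -1.98 ± 0.99 in M birds and -3.36 ± 1.25 in nM birds (SD, n = 6 each), a difference of 1.38 with an exact permutation p of 0.0649 and 0.0974 after adjustment.

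With 12 libraries no pair passed at 0.05, and 1 or 2 libraries decided it. Without the nM library of ZT5, NONO minus SFPQ differed between states by -1.51 (exact permutation, adjusted p = 0.0227). SFPQ minus HNRNPU then differed by 1.88 (exact permutation, adjusted p = 0.013) and NONO minus HNRNPU by 0.37 (exact permutation, adjusted p = 0.0238). Without the M library of ZT17, NONO minus HNRNPU differed by 0.40 (exact permutation, adjusted p = 0.013). Without the M ZT1 and nM ZT5 libraries together, all 3 pairs passed, with adjusted p of 0.0119, 0.0476 and 0.0119 for NONO to SFPQ, NONO to HNRNPU and SFPQ to HNRNPU. These 2 libraries were chosen after the data were seen. They hold the lowest SFPQ value of the M state and the highest of the nM state. Leaving them out was therefore bound to widen the SFPQ difference, and these p-values are given only as a description.

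**Figure D3:**
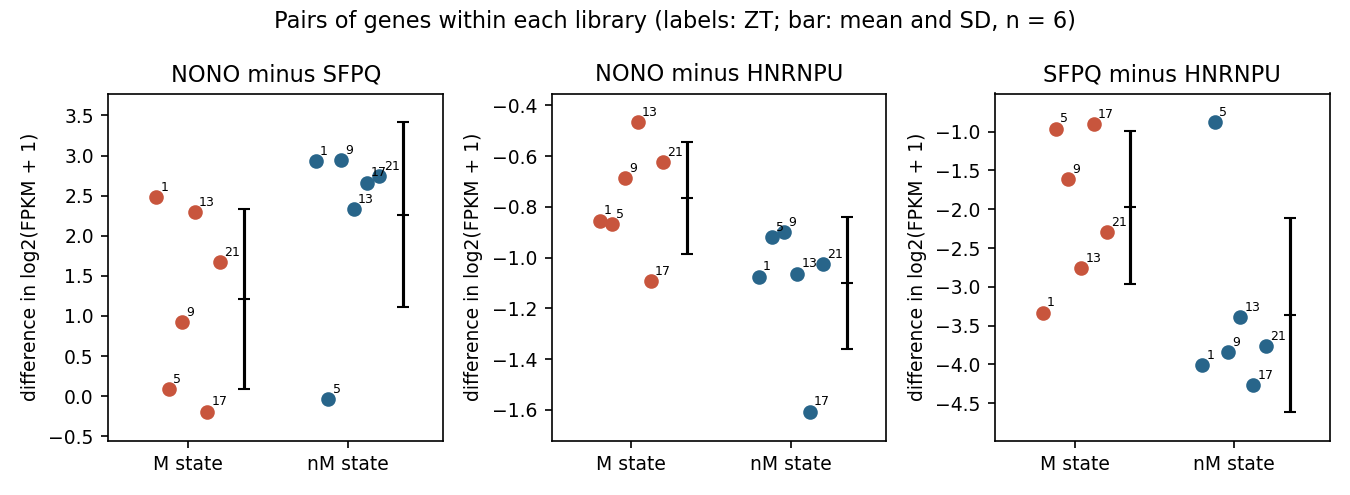
Difference in log2(FPKM + 1) between 2 genes of the same library (vertical axis) for the 3 pairs, by state (horizontal axis), with each library labelled by its hour after lights on and the mean ± SD of 6 libraries in black. The nM library of ZT5 lies among the M libraries in both pairs with SFPQ, and the nM library of ZT17 is lowest for NONO minus HNRNPU.

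Within states the 3 genes did not track each other beyond what 6 birds allow. In the M state Pearson's r was 0.49 for NONO with SFPQ (Spearman's rho 0.60, exact permutation p = 0.301 and 0.242). It was 0.64 for NONO with HNRNPU (rho 0.89, exact permutation p = 0.161 and 0.0333) and 0.85 for SFPQ with HNRNPU (rho 0.83, exact permutation p = 0.025 and 0.0583). In the nM state r was 0.21 for NONO with SFPQ (rho 0.49, exact permutation p = 0.547 and 0.356). It was -0.28 for NONO with HNRNPU (rho -0.37, exact permutation p = 0.571 and 0.497) and -0.46 for SFPQ with HNRNPU (rho -0.60, exact permutation p = 0.349 and 0.242). None passed after adjustment over these 6 relations, the smallest adjusted p being 0.15 for r and 0.175 for rho. Without the 2 libraries farthest from the median of the first gene, r in the M state was 0.73, 0.77 and 0.58 in the same order, and in the nM state it was 0.19, -0.73 and 0.32. The sign of SFPQ with HNRNPU in the nM state thus rested on those 2 libraries. The difference in correlation between the states was not tested.

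The members were not the closest matches of each other. Over the 12 libraries, which include the difference between states, NONO had r = 0.80 with HNRNPU and 0.71 with SFPQ on the log2(FPKM + 1) scale, and 0.69 was the value for SFPQ with HNRNPU. By this measure HNRNPU ranked 79 and SFPQ 345 among the 9565 other genes for NONO, and NONO ranked 386 for HNRNPU and 1012 for SFPQ. Of the other 9565 genes, 183 had r above 0.9 with SFPQ, against 6 with NONO and 16 with HNRNPU. Among the 4095 genes compared that carry a symbol, the 3 most like NONO were ALG5, a glucosyltransferase of protein N-glycosylation (r = 0.96), CCDC177 (0.92) and DARS, the aspartyl-tRNA synthetase (0.92). Centred on the states, r with NONO was 0.74 for ALG5, 0.81 for DARS and 0.38 for CCDC177, the last close to the 0.36 of both SFPQ and HNRNPU. ALG5 showed the same separation of the states, at 56.8 to 80.5 FPKM in the M libraries and 24.3 to 36.3 FPKM in the nM libraries. The 3 most like HNRNPU were ARL6IP4 (0.96), MRPL39, a protein of the mitochondrial ribosome (0.94), and TTLL12 (0.93). On the deposited scale MRPL39 and ARL6IP4 had their highest value in the M library of ZT17, at 224.1 and 35.9 FPKM, where HNRNPU was also highest.

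The genes most like SFPQ were HNRNPH3, a splicing factor that in mammals is part of the paraspeckle (r = 0.98), ATG7, an enzyme of autophagosome formation (0.98), and HNRNPM, another splicing factor (0.98). These likenesses were as high within the states, where r over the libraries centred on their own state was 0.98, 0.98 and 0.97. For comparison the centred r of SFPQ was 0.36 with NONO and 0.39 with HNRNPU, and its median over all other genes was -0.15. HNRNPH3 was at 6.27 to 91.7 FPKM in the nM libraries, the highest at ZT5, and at 31.5 to 313.9 FPKM in the M libraries, the lowest at ZT1 and the highest at ZT17. ATG7 was at 11.3 FPKM in the nM library of ZT5 and at 1.03 FPKM in the M library of ZT1. These correlations share libraries and their depth, and are given as a description.

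Of 13 other genes of nuclear RNA-binding proteins that could be compared, 7 rose in the M state, 0 fell and 6 did not pass, where 2.84% of all genes compared were called higher. Names were taken only from the study's lists of genes that it found different or cyclic in these libraries, so the members that can be counted were partly chosen on the outcome, and the share of them called cannot be read against the share over all genes. Of 5 genes compared from the NONO family and paraspeckle proteins, 3 rose in the M state, 0 fell and 2 did not pass. Of 8 hnRNP genes 4 rose, 0 fell and 4 did not pass, and of 3 SR proteins, which are splicing activators, 2 rose and 1 did not pass. The median log2 difference was 0.96, 0.85 and 0.79 in the 3 lists, against -0.08 over all genes compared. The lists overlap, and the 13 genes are those of all 3 together. The direction of the medians held under every scaling, but the number called, 7, fell to 2 with equal totals and to 0 when M ZT5, nM ZT17 or nM ZT21 was the library left out. It was 8 without the M ZT17 library and 9 without the M ZT1 and nM ZT5 libraries together.

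Among these genes the largest differences were in HNRNPH3 and HNRNPA3, an mRNA-binding protein. HNRNPH3 was at 113.0 ± 108.6 FPKM in M birds and 22.6 ± 34.0 FPKM in nM birds (SD, n = 6 each), a log2 difference of 2.56 (standard error 0.67, adjusted p = 0.0522 from limma). HNRNPA3 differed by 2.50 (standard error 0.65, adjusted p = 0.0518). Smaller rises were seen in SRSF6 (1.28, adjusted p = 0.0546), TAF15 (1.01, adjusted p = 0.0861) and HNRNPM (0.96, adjusted p = 0.0934). HNRNPA2B1, which binds mRNA and microRNA precursors, rose by 0.85 (adjusted p = 0.0806) and SRSF4 by 0.79 (adjusted p = 0.0877). Values short of the threshold were 0.86 in RBMX (adjusted p = 0.11), 0.50 in SRSF1 (adjusted p = 0.118) and -0.61 in PTBP2, a splicing repressor (adjusted p = 0.269).

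PSPC1, the other gene of the NONO family, was low in both states, at 3.75 ± 1.81 FPKM in M birds and 3.10 ± 1.25 FPKM in nM birds (SD, n = 6 each). Its log2 difference was 0.19, with a 95% interval of -0.41 to 0.79 (adjusted p = 0.67 from limma). MATR3, a nuclear matrix protein that binds SFPQ, was listed at 0 in all 12 libraries, as was ARNTL. Albumin, a main product of the liver, was also listed at 0 in some libraries, so a 0 in this table may be a failed estimate.

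The order of libraries seen in SFPQ was shared by some of these RNA-binding genes, but not by NONO or PSPC1, the other genes of its family. In 7 of the 13 genes, as in SFPQ, the nM library of ZT5 was the highest of its state and the M library of ZT1 the lowest of its state, an order found in 8.17% of all genes compared. These were HNRNPH3, HNRNPA3, HNRNPM, HNRNPA2B1, SRSF6, SRSF4 and SRSF1. All had r of at least 0.83 with SFPQ, which follows in part from the order they were picked by and adds no evidence. Names came only from the study's lists, so the 7 cannot be read against the share over all genes. NONO and HNRNPU had the M library of ZT1 lowest but not the nM library of ZT5 highest. PSPC1 and HNRPDL resembled HNRNPU more, with centred r of 0.90 and 0.85. The pattern was picked out after the values were seen, and the files do not say how reads shared between similar hnRNP genes were divided.

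**Figure D4:**
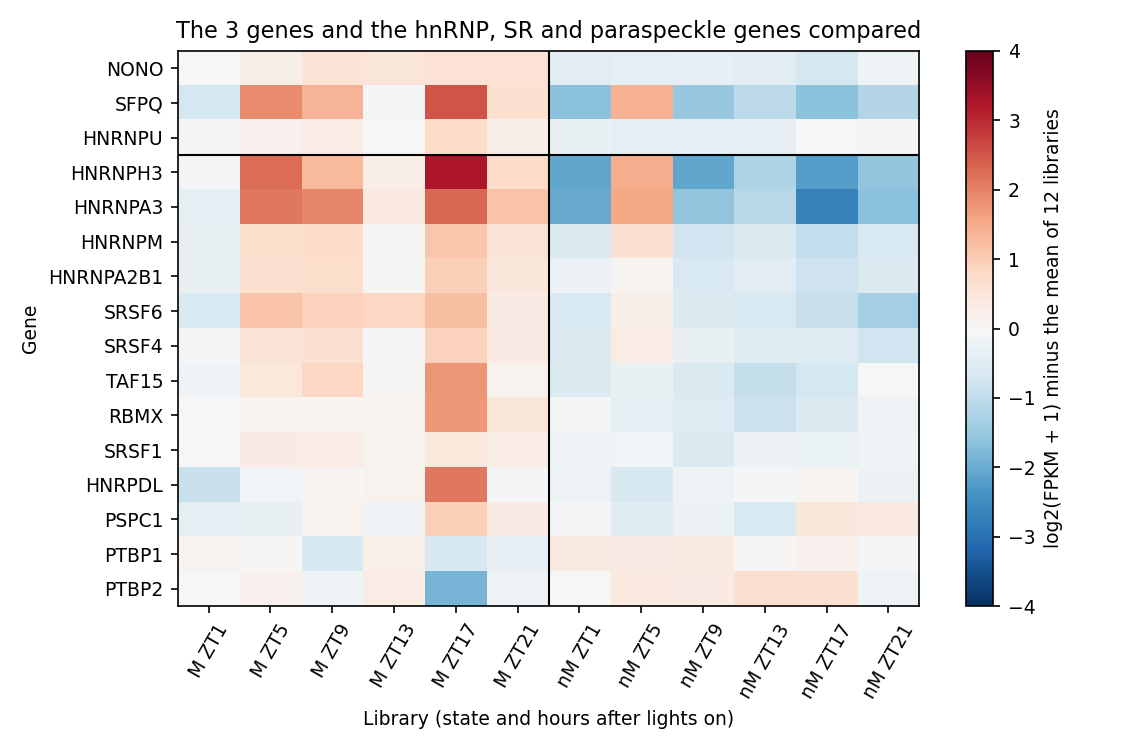
Log2(FPKM + 1) minus the mean of the 12 libraries (colour) for NONO, SFPQ and HNRNPU (top rows) and the 13 paraspeckle, hnRNP and SR genes compared (rows), by library (columns, M state left of the line and nM state right). SFPQ, HNRNPH3 and HNRNPA3 are high in the nM library of ZT5 and low in the other nM libraries. On this deposited scale NONO and HNRNPU change little within a state.

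The genes of the clock proteins with which NONO and SFPQ are found in mammals mostly had lower mean levels in the M state. Over all 12 libraries and without a replicate block, those named here fell short of the threshold. Of 10 genes compared from the PERIOD complex and its partners, 0 rose and 1 fell by limma, with a median log2 difference of -0.51. Over all genes compared, 2.84% were called higher and 6.48% lower. Names again came only from the study's lists, so these counts cannot be read against those shares. PER2, a repressor of the clock, had a difference of -0.89 (adjusted p = 0.488) and WDR5, which NONO-bound PERIOD complexes contain in mammals, one of -0.60 (adjusted p = 0.264). With time of day as a replicate block PER2 passed (adjusted p = 0.0906 from limma). WDR5 had a centred r of -0.92 with SFPQ, the most negative of these 10 genes, whose median was -0.30. PER2 was at 0.23. WDR5 was lowest of the nM libraries at ZT5 (27.8 FPKM) and highest of the M libraries at ZT1 (69.6 FPKM). That is the mirror of the SFPQ order, which many genes share.

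Of 13 clock genes compared 0 rose and 1 fell, with a median of -0.58, where 6.48% of all genes compared were called lower. The same limit on names applies to this count. PER2, PER3, CRY1 and CRY2 are also among the genes of the PERIOD complex above, so the counts of these lists are not independent. With time of day as a replicate block 3 of the 13 fell by limma. NFIL3, a repressor of clock-controlled genes, fell by 1.61 on the log2 scale (standard error 0.45, adjusted p = 0.0639 from limma). ARNTL2, a paralog of ARNTL, had a value of -1.22 (adjusted p = 0.102) and NR1D2, a nuclear receptor that represses ARNTL, one of -1.07 (adjusted p = 0.406). With time of day as a replicate block NR1D2 passed (adjusted p = 0.0944 from limma). A shared 24-h rhythm was called for PER2 (amplitude 2.04, adjusted p = 0.0072) and NR1D2 (amplitude 2.04, adjusted p = 0.017).

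The remaining lists touched other known roles of the members. Their names also came only from the study's lists, and over all genes compared 2.84% were called higher and 6.48% lower. DNA end joining draws on SFPQ and NONO in mammalian cells. Over all 12 libraries, of 4 of its genes compared 0 were called by limma, ordinary regression or the exact Wilcoxon rank sum test. In limma 1 was at an unadjusted p under 0.05, and 1 was called without the nM library of ZT5. XRCC5, a subunit of the Ku heterodimer, had a value of -0.94 (adjusted p = 0.134) and PRKDC, the kinase that Ku recruits, one of -0.43 (adjusted p = 0.319). Of the nuclear matrix and scaffold genes, LMNB2, a lamin, fell by 0.80 on the log2 scale (adjusted p = 0.0878). SATB1 and NUMA1 were at -0.63 (adjusted p = 0.308) and -0.64 (adjusted p = 0.156). Over all 12 libraries, of 7 genes of hepatic glucose and lipid handling after feeding 0 were called by limma without a replicate block, ordinary regression or the Wilcoxon test. In limma 1 of them was at an unadjusted p under 0.05. FASN, the fatty acid synthase, had the largest value at -1.64 (adjusted p = 0.113), and SLC2A2, the main glucose transporter of the hepatocyte, one of -0.60 (adjusted p = 0.291). With time of day as a replicate block FASN was called (adjusted p = 0.0684 from limma).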

How the data were processed

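Poly-A RNA of 12 livers was sequenced as single-end reads from a library kit that does not mark strand, so overlapping antisense transcripts cannot be told apart. The authors removed ribosomal reads with Bowtie2 (2.0.2), aligned with STAR to the zebra finch genome and used Cufflinks (2.2.1) to estimate the FPKM of each gene. The deposited FPKM table held 18284 genes. The deposited log2 values equalled log2(FPKM + 1) of 11246 of these within 1e-06, with no further scaling between libraries.

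The 9566 genes that exceeded 0.1 FPKM in 10 or more libraries were fitted on log2(FPKM + 1), a scale that understates changes of low genes, with limma (3.58.1, R 4.3.3) and Benjamini-Hochberg adjustment over all of them. Genes were called at an adjusted p below 0.1 and an absolute log2 difference above 0.1. The times of day served as the 6 replicates of a state, so p-values rest on the spread between single birds of different times. In limma the spread of each gene is drawn toward that of all genes compared. Its p-values, standard errors and intervals thus do not rest on that gene alone. Exact tests used Python 3.11.15 and were, like limma, checked on simulated data. Symbols came from the study's lists, which name 4651 genes. Likeness was Pearson's r over 12 libraries. Named genes were the members, PSPC1, MATR3, the 3 most alike genes per member and, from each list, every gene called and the 2 largest differences not called. The members and lists were chosen with earlier results of these data known. Alternatives covered the pseudocount, filter, scaling, test, replicate block and each library left out. Some genes that this rule names are not reported here. No sequences or genome coordinates were used here.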

Additional observations from a re-analysis of the deposited data

Results flagged for a closer look

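In groups of 6 libraries, a highest or lowest value was taken as far from the others where its gap to the next exceeded 0.625 of the range, which chance does in about 1 in 20 groups. Of 12 groups checked, 4 did so, and they share libraries and genes. In the nM state the highest SFPQ value, 4.98 on the log2(FPKM + 1) scale at ZT5, lay 0.80 of the range from the next. The same library gave the lowest NONO minus SFPQ value, -0.038, and the highest SFPQ minus HNRNPU value, -0.88. The lowest NONO minus HNRNPU value in the nM state, -1.61, came from the library of ZT17, where NONO was at its lowest and HNRNPU at its highest of that state. No group of the M state was marked in this way.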

How the results depend on the processing

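No result called under either setting changed direction. NONO passed everywhere except with equal totals (0.68, adjusted p = 0.368). SFPQ was at 1.74 with equal totals, 2.36 (difference of medians) by the exact Wilcoxon rank sum test, 2.08 with a pseudocount of 0.1, and 1.88 both without a filter and by ordinary regression, none past the threshold. With 1 library left out it ran from 1.57 to 2.35. HNRNPU passed by the exact Wilcoxon rank sum test (0.54, difference of medians) and ordinary regression (0.49), and ran from 0.40 to 0.55 with 1 library left out. Its smallest difference was with equal totals (0.34, adjusted p = 0.581 from limma).

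The count of genes called between states, 892, was 293 with equal totals, 331 without a filter, 2511 without the M ZT1 and nM ZT5 libraries together (chosen after seeing the data), and 200 to 1979 with 1 library left out, the extremes being without the M library of ZT5 and without that of ZT1. With equal totals 61.1% of the calls were higher in the M state against 30.5% as deposited, and the median difference over genes moved from -0.08 to -0.17. It was 0.00 with median-of-ratios scaling, where 40.0% of the calls were higher, and 44.2% were with quantile normalization. The shared rhythm, 5 genes, was called in 1 with equal totals, 0 without a filter, 1 by ordinary regression, 0 without both libraries named above, and 2 to 37 with 1 library left out, the highest without the M library of ZT17.

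Ratios between states ran from -1.51 to -0.77 for NONO to SFPQ, 0.23 to 0.40 for NONO to HNRNPU and 1.17 to 1.88 for SFPQ to HNRNPU with 1 library left out. Without both libraries they were -1.76, 0.39 and 2.15. With equal totals the M-state r was 0.98 for NONO with HNRNPU (exact permutation, adjusted p = 0.025), -0.028 for NONO with SFPQ and -0.0083 for SFPQ with HNRNPU. The nM-state values were 0.74, 0.28 and -0.024 in the same order. Equal totals divides both genes of a library by the same factor, 0.64 to 2.91 in the M state. As deposited, the highest M value was 1.47 times the lowest for NONO and 1.73 times for HNRNPU. A shared divisor wider than the genes' own range raises r by itself, so the 0.98 cannot show whether these 2 genes track each other. Against the deposited scale the sign turned, with no call, for both SFPQ pairs in the M state and for NONO with HNRNPU in the nM state. The cause was not tested.

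Libraries of the same hour share only that hour. Their deviations correlated at 0.03 to 0.47, below 0.1 at 3 of 6 times, so they were not taken as pairs. Time of day as a replicate block gave 928 genes called, NONO 0.83 (adjusted p = 0.0775), SFPQ 1.88 (adjusted p = 0.0745) and HNRNPU 0.49 (adjusted p = 0.169). It called FASN (adjusted p = 0.0684), PER2 (0.0906) and NR1D2 (0.0944), all lower in the M state, 4 of the 13 RNA-binding genes and 0 of the 4 nuclear matrix genes. The ratios kept -1.05, 0.33 and 1.38 under the replicate block (exact sign flips, adjusted p = 0.0938 each).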
